A study of Mus musculus with 4 samples.

Results

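GABA-A receptor subunit genes encode the chloride channels through which GABA inhibits neurons of the spinal cord. The genes described here were the 7 listed alpha, beta and gamma subunit genes Gabra2, Gabra3, Gabra4, Gabra5, Gabrb1, Gabrb2 and Gabrg1, found by Entrez Gene identifier among the 27179 identifiers counted. They were measured by poly(A) RNA-seq in 4 libraries of spinal cord, segments L4-6, of male C57BL/6J mice. The sources used here give neither their age nor how many went into a library. The sample titles put 2 libraries in a cuff group and 2 in a sham group, 28 days after surgery per the series design. In the cuff model a cuff constricts the sciatic nerve and produces lasting pain, while a sham operation leaves the nerve unconstricted. For all 4 libraries the deposited file is named for the other condition. Groups follow the titles here (cuff-titled and sham-titled libraries), and were the file names correct instead, every direction below would be reversed.

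A GABA-A receptor is a ring of subunits around a chloride pore, and most contain alpha and beta subunits together with a gamma or delta subunit. GABA binds between beta and alpha subunits, and classical benzodiazepines bind between alpha and gamma subunits. In the dorsal horn of the cord these receptors dampen pain signals, and in mice receptors with the alpha2 or alpha3 subunit carry much of the pain relief that benzodiazepines give at this level.

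The 7 genes lie on 4 mouse chromosomes (build mm10, coordinates from the RefSeq table of GRCm38.p6). Chromosome 5 holds a cluster of 4 of them over 1398526 bases. From its left end, Gabrg1 (Entrez 14405) runs from 70751047 to 70842617, Gabra2 (14395) from 70958392 to 71095849 and Gabra4 (14397) from 71569734 to 71658308, all on the minus strand. Gabrb1 (14400) follows on the plus strand, from 71657921 to 72149572. Gabra4 and Gabrb1 start head to head and their annotated spans share 388 bases. In GENCODE M21 their exons share 46 bases on opposite strands. The library kit kept strand but the sources used here do not state the strand setting of the counting, so reads from those 46 bases could not be assigned. Gabrb2 (14401) lies on chromosome 11 from 42419515 to 42632591, Gabra5 (110886) on chromosome 7 from 57407669 to 57591016 and Gabra3 (14396) on chromosome X from 72432676 to 72656919. Exons of Gabra5 share 148 bases with Gm9962, an annotated gene on the opposite strand, and the other 4 genes share no exonic base with another annotated gene.

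The DNA just before an annotated start is shown for 5 of these genes. They are the 3 genes that passed the test below (Gabrb2, Gabrb1 and Gabra2) and the other 2 genes of the chromosome 5 cluster (Gabrg1 and Gabra4). Each line gives the 250 bases before a RefSeq start (GRCm38.p6), 5′ to 3′ on the gene's own strand, with CG dinucleotides in capitals. The windows are chr11:42420190-42420439 on the plus strand for Gabrb2, chr5:71699682-71699931 on the plus strand for Gabrb1, and, on the minus strand, chr5:71095850-71096099 for Gabra2, chr5:70842618-70842867 for Gabrg1 and chr5:71658309-71658558 for Gabra4. Windows were available for 3 RefSeq starts of Gabrb2 and 2 of Gabrb1. The Gabrb1 window shown is the one before its longest coding transcript in GENCODE M21, and the Gabrb2 window shown is the leftmost of its 3. Both lie inside the gene spans given above, which begin farther left, at 71657921 for Gabrb1 and 42419515 for Gabrb2.
Gabrb2: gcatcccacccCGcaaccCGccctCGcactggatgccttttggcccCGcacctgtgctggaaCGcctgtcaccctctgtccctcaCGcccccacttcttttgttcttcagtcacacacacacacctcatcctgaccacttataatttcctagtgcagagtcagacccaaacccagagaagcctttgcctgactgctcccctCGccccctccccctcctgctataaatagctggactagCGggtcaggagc
Gabrb1: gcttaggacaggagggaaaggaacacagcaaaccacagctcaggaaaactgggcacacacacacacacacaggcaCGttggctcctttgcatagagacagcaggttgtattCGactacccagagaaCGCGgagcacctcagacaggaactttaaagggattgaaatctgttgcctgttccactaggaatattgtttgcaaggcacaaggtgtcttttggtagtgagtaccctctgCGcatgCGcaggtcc
Gabra2: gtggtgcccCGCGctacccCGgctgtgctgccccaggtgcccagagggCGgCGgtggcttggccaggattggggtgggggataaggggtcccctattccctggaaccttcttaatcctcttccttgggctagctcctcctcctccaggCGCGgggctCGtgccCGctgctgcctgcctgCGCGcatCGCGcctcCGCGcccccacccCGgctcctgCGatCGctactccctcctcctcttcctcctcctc
Gabrg1: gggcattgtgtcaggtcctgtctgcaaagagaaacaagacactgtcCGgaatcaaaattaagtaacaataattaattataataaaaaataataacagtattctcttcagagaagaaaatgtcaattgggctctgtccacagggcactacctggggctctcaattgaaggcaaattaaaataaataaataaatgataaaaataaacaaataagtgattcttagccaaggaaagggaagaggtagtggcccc
Gabra4: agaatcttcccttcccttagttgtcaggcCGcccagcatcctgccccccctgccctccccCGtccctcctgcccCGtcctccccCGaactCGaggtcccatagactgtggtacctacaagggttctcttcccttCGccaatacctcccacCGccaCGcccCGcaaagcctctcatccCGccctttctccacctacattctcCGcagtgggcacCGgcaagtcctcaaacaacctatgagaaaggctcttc
The Gabra2 window held 18 CG dinucleotides and 70.0% G or C, and the Gabra4 window 12 and 61.2%. The Gabrg1 window held 1 and 35.6%. Of 32851 such windows 7.87% held fewer, and their median was 6. The Gabrb2 window had 8 and the Gabrb1 window 6. The other Gabrb1 window, at the start head to head with Gabra4 (chr5:71657671-71657920), had 18 and 64.4%, so the 2 starts of Gabrb1 differed in this respect. The letters GGGCGG, the core that Sp1 proteins bind, occurred on either strand in the windows shown for Gabra2, Gabra4 and Gabrb2. They occurred in 32.7% of all windows. The letters TATAAA of the core promoter box for TBP began 30 bases before the start shown for Gabrb2, occurred at 1 site on the opposite strand that both overlapping Gabra3 windows hold, and were found on either strand in 12.4% of all windows. The palindromic core bound by the factor NRF1 began 16 bases before the start shown for Gabrb1 and was present in 0.782% of all windows. No motif of these 3 was present in the windows of all 3 genes that passed the test. The windows at the other starts of Gabrb2 and Gabrb1 held none of these 3 motifs.

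The libraries held between 32936609 and 39461573 counts, and the 7 genes between 173 counts (Gabrb1) and 6742 counts (Gabra3) in a library. The 12 neuronal marker genes summed to between 10580 and 11960 CPM (counts scaled to a common library total) per library. Such genes cannot tell spinal cord from other nervous tissue. The second cuff-titled library stood apart. It alone held counts of Scn10a, a sodium channel gene of sensory ganglion neurons, with 213 against 0 in each of the other 3 libraries, and it had the highest sums of 9 skeletal muscle genes (597 CPM against 79.9 to 166) and 7 Schwann cell genes (3199 against 512 to 1179). Since nothing in the labels ties each library to its own animals, p-values here reflect only how these libraries vary, which may be technical.

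All 7 genes had a lower mean in the cuff-titled libraries, and 3 of them, Gabrb2, Gabrb1 and Gabra2, fell at an adjusted p under 0.05 (edgeR quasi-likelihood test, Benjamini-Hochberg over 16918 genes). Among all tested genes 2.96% were called lower and 1.15% higher, 4.11% in all, and 47.9% had a log2 fold change below 0. The groups did not overlap in 6 of the 7 genes, each lower in the cuff-titled libraries, as in 25.9% of all tested genes (28.2% lay apart and higher). DESeq2 called 4 of the 7 lower and limma-voom 1, against 5.51% and 0.668% of the genes each tested. The median log2 fold change of the 7 genes was -0.61, against 0.02 for all tested genes. All 7 passed the filter on low counts. Whether fewer cells or less RNA per cell gave a lower value cannot be told apart in bulk tissue.

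**Figure D1:**
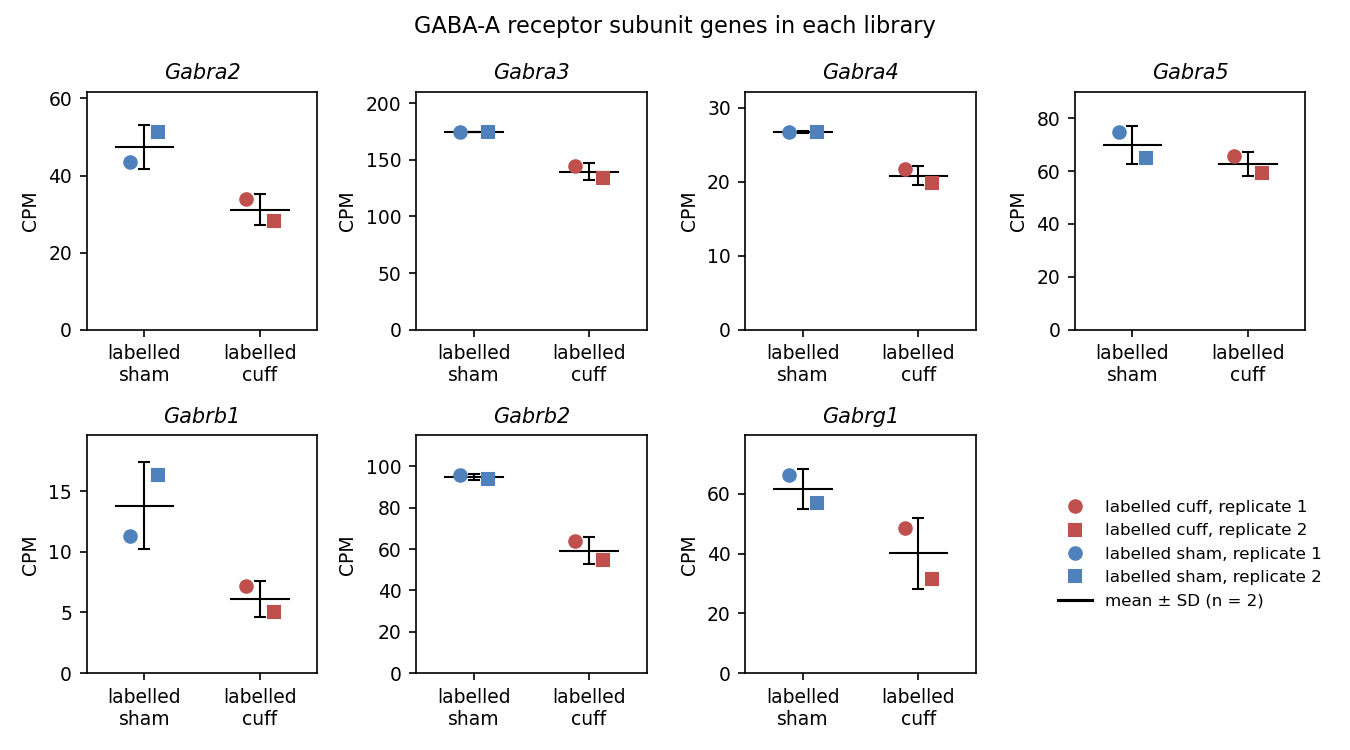
CPM (vertical axes, each starting at 0) of the 7 subunit genes in the 2 sham-titled libraries (blue) and the 2 labelled cuff (red), with circles for replicate 1, squares for replicate 2 and bars for mean ± SD. Both red points lie below both blue points in every panel except that of Gabra5.

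The beta subunits help form the GABA site, and receptors with beta2 respond more strongly to the anaesthetic etomidate than receptors with beta1. Gabrb2 was at 64.0 and 54.6 CPM in the cuff-titled libraries and at 95.8 and 93.9 CPM in the sham-titled ones. The groups were well apart, and the sham pair lay close together. Its mean fell from 94.8 ± 1.33 to 59.3 ± 6.65 CPM (SD, n = 2), a log2 fold change of -0.68 ± 0.13 (SE, edgeR adjusted p = 0.0134), or 1.60-fold.

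Gabrb1 was at 7.18 and 5.07 CPM in the cuff-titled libraries and at 11.3 and 16.3 CPM in the sham-titled ones. These rested on 259, 173, 432 and 630 counts, the smallest of the 7 genes. The groups did not overlap, but the sham-titled pair lay farther from each other than the nearest libraries of the 2 groups did. The log2 fold change of Gabrb1 was -1.17 ± 0.23 (edgeR adjusted p = 0.0147), a fall of 2.25-fold and the largest in size of the 7.

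The alpha subunits decide much of a receptor's pharmacology. Gabra2, whose product is common at inhibitory synapses of the dorsal horn, was at 34.0 and 28.3 CPM in the cuff-titled libraries and at 43.5 and 51.4 CPM in the sham-titled ones. Every cuff-titled library was below every sham-titled library. Gabra2 fell by 0.61 ± 0.14 on the log2 scale (edgeR adjusted p = 0.029), or 1.52-fold.

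Gabra3, whose product is also synaptic in the cord, had the highest CPM of the 7. It was at 145 and 134 CPM in the cuff-titled libraries and at 175 in each sham-titled library. The groups did not overlap, but the difference did not pass the test (log2 fold change -0.33 ± 0.13, edgeR adjusted p = 0.147). Gabra4, whose product often joins delta subunits outside synapses in receptors that classical benzodiazepines do not enhance, showed the same order of libraries. It was at 21.7 and 19.9 CPM in the cuff-titled libraries and at 26.7 and 26.6 CPM in the sham-titled ones. It did not pass either (-0.36 ± 0.14, edgeR adjusted p = 0.158).

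Gabra5, whose product is found largely outside synapses in the forebrain, was at 65.8 and 59.4 CPM in the cuff-titled libraries and at 75.0 and 65.0 CPM in the sham-titled ones. It was the one gene of the 7 whose groups overlapped, since the second sham-titled library lay between the cuff-titled libraries. Its log2 fold change was -0.16 ± 0.13 (edgeR adjusted p = 0.52).

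Gabrg1 encodes a gamma subunit that glia also express in the mouse brain. It was at 48.5 and 31.6 CPM in the cuff-titled libraries and at 66.2 and 56.9 CPM in the sham-titled ones. The cuff-titled libraries were lower but far from each other (SD 11.9 CPM, against 6.55 for the sham-titled). Its log2 fold change of -0.62 ± 0.19, close to that of Gabra2, did not pass the test (edgeR adjusted p = 0.0949). It was called lower by DESeq2 (adjusted p = 0.027).

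**Figure D2:**
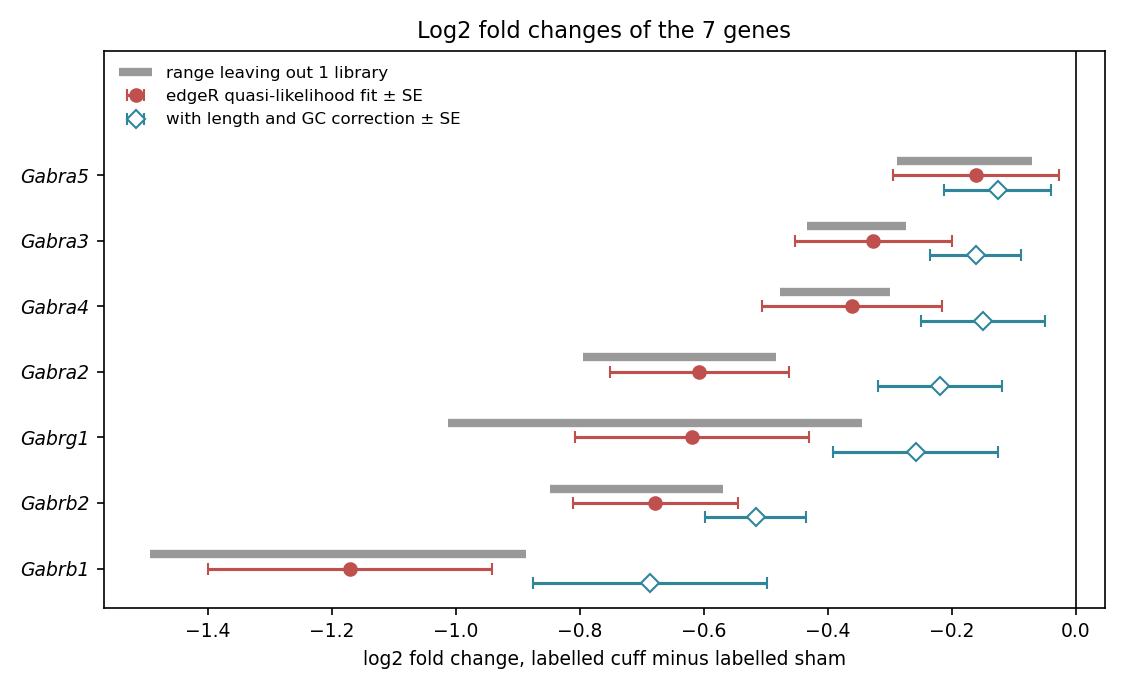
Log2 fold change (horizontal axis, labelled cuff minus labelled sham) of each of the 7 genes. Red circles give the edgeR fit ± SE, grey bars the range when 1 library was left out in turn, and open diamonds the fit corrected for transcript length and GC content ± SE. Every symbol lies below 0, and the diamonds of Gabra2, Gabrg1 and Gabrb1 lie much nearer to 0 than their circles.

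Leaving out 1 library changed the calls but no direction. Each of these fits leaves 1 library in a group, so only log2 fold changes are given here. How the calls changed is given below, beside the counts over all genes. Each of the 7 log2 fold changes was below 0 in all 4 of these fits. Gabrg1 moved most, from -1.01 without the first cuff-titled library to -0.35 without the second. Gabrb1 went from -1.49 without the first cuff-titled library to -0.89 without the second sham-titled, and Gabrb2 stayed between -0.85 and -0.57.

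The 7 transcripts shared a property that moved with the comparison. The longest annotated transcript of each had a GC content from 35.3% (Gabrg1) to 47.1% (Gabra5), all under the median of 49.9% over tested genes. Lengths ran from 2671 nt (Gabra5) to 13737 nt (Gabrb1), of which only 10.4% is coding in Gabrb1. Across all tested genes, the tenth with the lowest GC content had a median log2 fold change of -0.27 and 12.3% of its genes were called lower, against 0.28 and 0.194% in the tenth with the highest. Gabra2, Gabrb1 and Gabrg1 belonged to the tenth of lowest GC content. In the tenth with the longest transcripts, which holds Gabrb1, the median was -0.27 and 14.5% of genes were called lower.

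**Figure D3:**
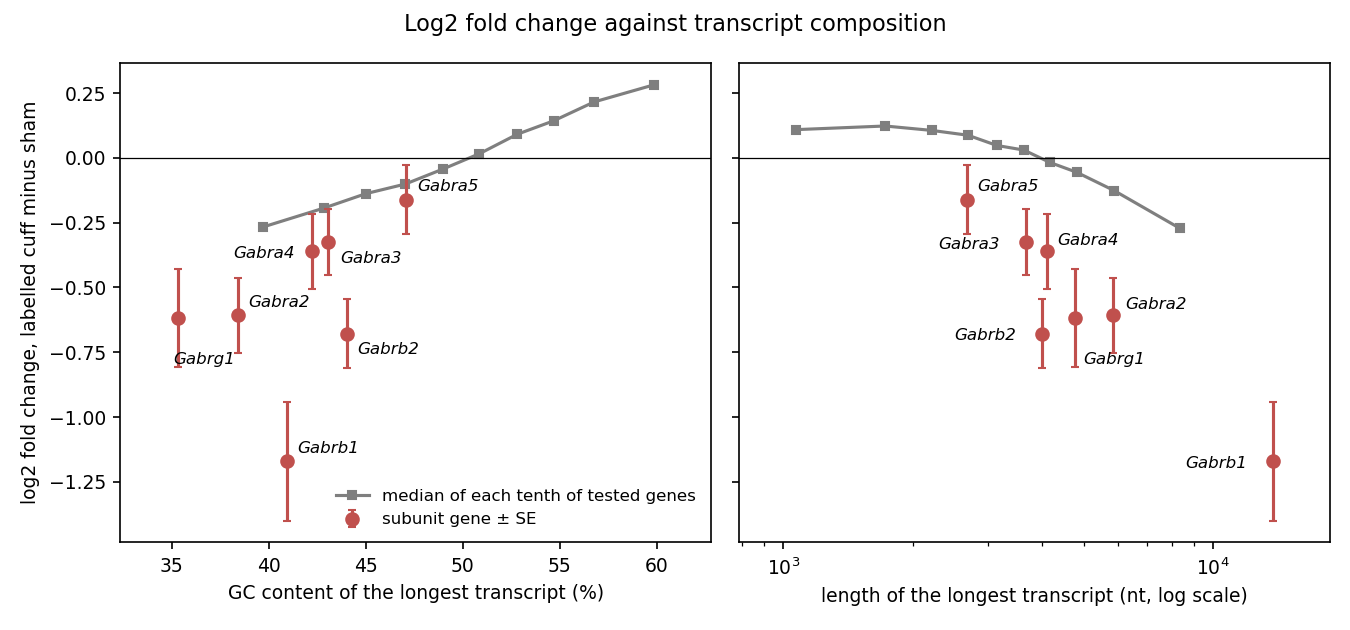
Log2 fold change (vertical axis, labelled cuff minus labelled sham) against GC content (left, %) and length (right, nt, log scale) of the longest transcript. Grey squares join the medians of 10 equal bins of all tested genes, and red circles are the 7 subunit genes ± SE. All 7 circles lie left of the median GC content of 49.9%. In both panels each circle lies below the median of the bin that holds its gene.

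After a correction for transcript length and GC content within libraries, edgeR called 0 of the 7 genes and gave Gabrb2 and Gabrb1 an unadjusted p under 0.05. Such a p was found for 2637 of all 15465 genes in that fit. The log2 fold change of Gabrb2 became -0.52 ± 0.08 (adjusted p = 0.0533) and that of Gabrb1 -0.69 ± 0.19 (adjusted p = 0.135). Gabra2 went from -0.61 to -0.22 ± 0.10 (adjusted p = 0.309) and Gabrg1 from -0.62 to -0.26 ± 0.13 (adjusted p = 0.361). Gabra3 was then at -0.16, Gabra4 at -0.15 and Gabra5 at -0.13. The median of the 7 was -0.22, while 24 of 15465 genes were called in that fit, 0.11% of those tested being lower. The part of length and GC content in the uncorrected differences was not tested beyond this correction.

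The log2 fold changes along the chromosome 5 cluster were -0.62 for Gabrg1, -0.61 for Gabra2, -0.36 for Gabra4 and -1.17 for Gabrb1. The head-to-head neighbours Gabra4 and Gabrb1 had the smallest and the largest value, and differences between the 4 genes were not tested. With the length and GC correction the values were -0.26, -0.22, -0.15 and -0.69 in the same order. Cox7b2, a cytochrome oxidase subunit gene between Gabra2 and Gabra4, was low, with 16 and 19 counts in the cuff-titled libraries and 10 and 14 in the sham-titled ones.

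**Figure D4:**
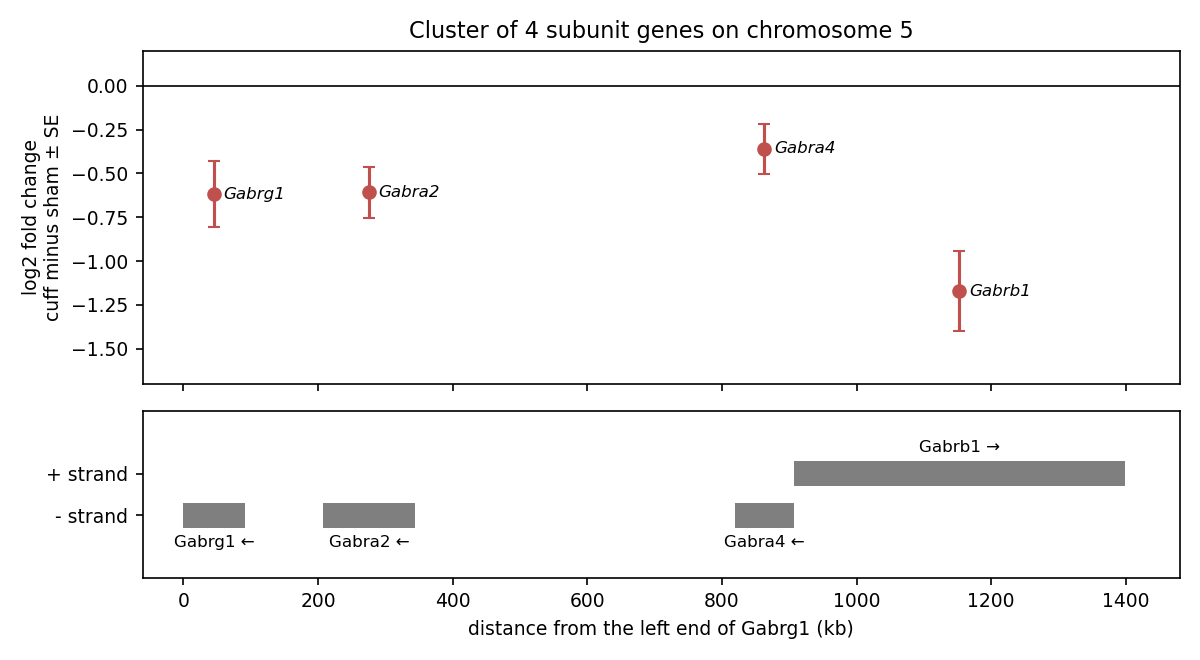
The cluster of Gabrg1, Gabra2, Gabra4 and Gabrb1, drawn to scale as distance from the left end of Gabrg1 (kb), with strand below and log2 fold change ± SE (labelled cuff minus labelled sham) above the middle of each gene. Gabra4 and Gabrb1 meet head to head, at -0.36 and -1.17.

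Levels of different genes were compared as CPM per kilobase of the longest transcript. In the sham-titled libraries, Gabra3 was highest at 47.7 ± 0.0294 (SD, n = 2), then Gabra5 at 26.2 ± 2.65, Gabrb2 at 23.8 ± 0.333 and Gabrg1 at 12.9 ± 1.37 CPM per kilobase. Gabra2 at 8.11 ± 0.959, Gabra4 at 6.50 ± 0.0206 and Gabrb1 at 1.01 ± 0.259 CPM per kilobase followed. Gabra5 and Gabrb2 did not differ beyond their spread there. In the cuff-titled libraries the order was the same, from 38.1 ± 2.04 for Gabra3 to 0.446 ± 0.109 for Gabrb1. Gabra2 (5.32 ± 0.684) and Gabra4 (5.06 ± 0.318) overlapped there. With coding length instead, Gabra2 was at 23.01 there against 12.55 for Gabra4, and at 35.06 against 16.12 in the sham-titled libraries. How near Gabra2 and Gabra4 lay thus depended on the length used. Per kilobase of coding sequence Gabrb2 stood above Gabra5 in the sham-titled libraries (66.7 against 50.4). It stood below Gabra5 in the cuff-titled ones (41.7 against 45.1), as it did per kilobase of transcript. The order of Gabrb2 and Gabra5 thus depended on the length used in the sham-titled libraries only.

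Shares within a library do not depend on how libraries are scaled, but they were not corrected for transcript length or GC content. With that correction the log2 fold changes of Gabra2 and Gabra5 were -0.22 and -0.13, against -0.61 and -0.16 without it. Those of Gabrb1 and Gabrb2 were -0.69 and -0.52, against -1.17 and -0.68. The part of length and GC content in the shares was not tested. Among the 4 alpha subunit genes, Gabra3 made up 52.5% and 53.4% of the counts per kilobase in the cuff-titled libraries and 53.2% and 54.6% in the sham-titled ones, and the groups overlapped. Gabra5 made up 32.7% and 32.5% against 31.3% and 27.9%, a larger share in both cuff-titled libraries. Gabra2 made up 7.72% and 7.06% against 8.28% and 10.1%, a smaller share in both. Per kilobase of coding sequence the mean share of Gabra2 was 13.1% against 15.9%, also smaller, so its size depends on the length used. Gabra4 held 7.03% and 7.06% against 7.26% and 7.43%, also smaller in both. Of the counts of Gabrb1 and Gabrb2 together, per kilobase, Gabrb1 was 3.16% and 2.63% in the cuff-titled libraries and 3.31% and 4.81% in the sham-titled ones. Per kilobase of coding sequence these shares were 10.1%, 8.5%, 10.6% and 14.8%. With 2 libraries against 2 an exact permutation test cannot reach 0.05, so these shares are a description.

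**Figure D5:**
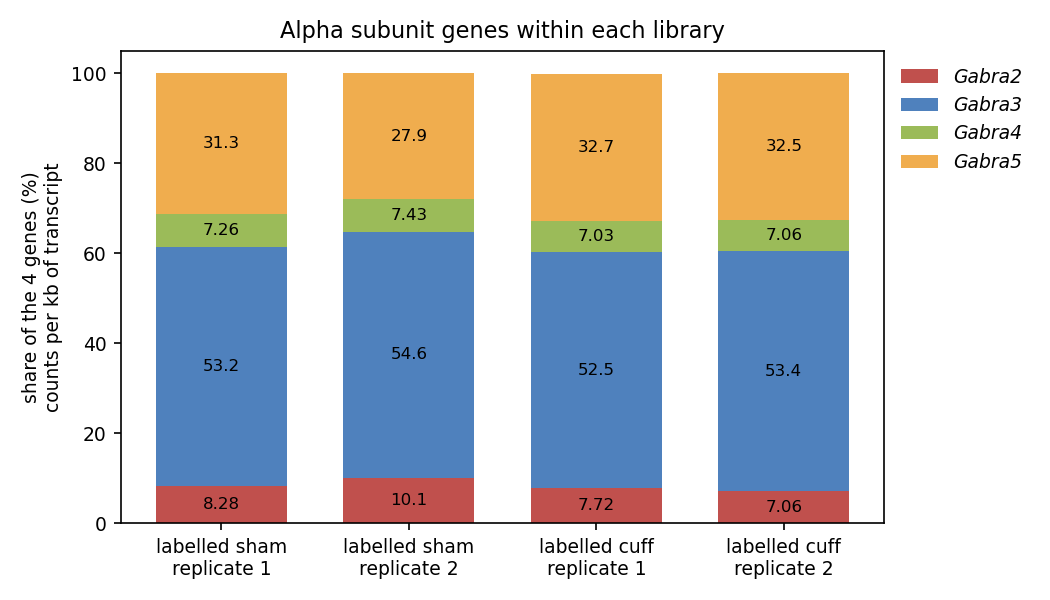
Share (%, vertical axis, from 0) of each of the 4 alpha subunit genes in their summed counts per kilobase of transcript, 1 bar per library. Gabra3 takes just over 50% of every bar, and Gabra5 is at 32.7% and 32.5% in the cuff-titled libraries against 31.3% and 27.9% in the sham-titled ones.

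A further 9 subunit genes were each at 4.69 CPM or less in every library. Of these, 5 passed the filter and 0 were called by edgeR, limma-voom or DESeq2 (which gave Gabrd no adjusted p). An unadjusted edgeR p under 0.05 was found for 3 of the 5, against 3634 of all 16918 tested genes. These 3 subunit genes were lower in both cuff-titled libraries. Gabrq, the theta subunit gene beside Gabra3 on chromosome X, was at 1.91 and 1.49 CPM against 2.98 and 4.69 (log2 fold change -1.17 ± 0.34, edgeR adjusted p = 0.0617). Gabrr2, a rho subunit gene best known from the retina, was at 1.08 and 1.38 CPM against 3.24 and 2.28 (-1.17 ± 0.38, edgeR adjusted p = 0.085). Gabrg3, a gamma subunit gene, was at 1.14 and 0.733 CPM against 1.31 and 2.80 (-1.13 ± 0.46, edgeR adjusted p = 0.16).

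The delta subunit gene Gabrd (0.57 ± 0.56, edgeR adjusted p = 0.598) and the epsilon subunit gene Gabre (0.41 ± 0.42, edgeR adjusted p = 0.616) had positive log2 fold changes and overlapping groups. Gabra6, the alpha subunit gene of cerebellar granule cells, and Gabrp had 0 counts in every library, which allows up to 3 counts per library, or at most 0.0911 CPM. Gabrr1 had between 2 and 6 counts in a library, and Gabrr3 had 7 counts in the second sham-titled library and 0 in the other 3.

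A list of 19 genes encodes proteins that anchor, assemble or move these receptors. Of them edgeR called 0, with 3 at an unadjusted p under 0.05 (3634 of 16918 over all tested genes). DESeq2 called 1 and limma-voom 0. In 10 the log2 fold change was negative and in 9 positive, with a median of -0.0043. Plcl1, which encodes a protein that regulates receptor phosphorylation and trafficking, was at -0.43 ± 0.13 (edgeR adjusted p = 0.0718) and was the gene that DESeq2 called. With the length and GC correction it was at -0.16. Nlgn2, which encodes the adhesion protein neuroligin 2 of inhibitory synapses, was at 0.39 ± 0.14 (edgeR adjusted p = 0.117), and at 0.14 with the correction. Gphn, the gene of the scaffold protein gephyrin, was at -0.16 ± 0.13 (edgeR adjusted p = 0.508).

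Of 8 genes that make, package, take up or break down GABA, edgeR called 0 with 0 at an unadjusted p under 0.05, DESeq2 called 1 and limma-voom 0. The gene that DESeq2 called higher was Slc6a13, a GABA transporter gene, at 5.54 and 16.1 CPM in the cuff-titled libraries and at 3.45 and 5.41 CPM in the sham-titled ones. Its high value came from the second cuff-titled library, and the first lay close to the second sham-titled library. The second cuff-titled library also had the highest sums of leptomeningeal and fibroblast, muscle, Schwann cell, and blood and bone marrow genes. The median log2 fold change was -0.04. The vesicular GABA transporter gene Slc32a1 was at 0.25 ± 0.13 (edgeR adjusted p = 0.276) and Abat, the GABA transaminase gene, at -0.22 ± 0.13 (edgeR adjusted p = 0.353).

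Marker genes of the cell types in the cord were read beside these values. Counts of them at an unadjusted edgeR p under 0.05 stand against 3634 of all 16918 tested genes. Of 12 neuronal genes, edgeR called 1 lower, the RNA-binding protein gene Elavl4 (-0.50 ± 0.14, adjusted p = 0.04998), and 6 were negative and 6 positive, with a median of -0.04 (DESeq2 called 2, limma-voom 0 and the corrected fit 0). The summed level of the 12 was 11910 and 10580 CPM in the cuff-titled libraries and 11960 and 11310 CPM in the sham-titled ones. Of 8 astrocyte genes 7 were negative, with a median of -0.23, and the water channel gene Aqp4 fell (-0.63 ± 0.14, edgeR adjusted p = 0.0248). DESeq2 called 3 of the 8, limma-voom 0 and the corrected fit 0. Their sum was 5600 and 4685 CPM against 6753 and 6337. The sum of 8 oligodendrocyte and precursor genes was 31210 and 27050 CPM against 29910 and 24390 CPM, with Sox10 called higher by edgeR and DESeq2 and not by limma-voom or in the corrected fit. Of 8 microglial genes 6 were negative and 0 called (edgeR, DESeq2 and limma-voom; 1 at an unadjusted edgeR p under 0.05), with sums of 317 and 279 CPM against 355 and 339 CPM.

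Of 11 sensory ganglion genes 5 could be tested, 4 of them positive and 0 called (edgeR; 3 at an unadjusted p under 0.05, and 0 by limma-voom or, for the 3 it gave an adjusted p, DESeq2). Their sum was 50.3 and 82.3 CPM in the cuff-titled libraries and 52.6 CPM in each sham-titled library. Most of each sum was Calca, at 43.9 and 52.1 CPM against 48.1 and 48.0 CPM. All 8 endothelial genes (Cldn5, Slco1a4, Kdr, Egfl7, Tek, Tie1, Pecam1 and Flt1) were called higher by edgeR, against 1.15% of all tested genes. DESeq2 called 6 of them, limma-voom 2 and the corrected fit 2. Their sums were 180 and 190 CPM against 97.3 and 110 CPM.

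Of 10 blood and bone marrow genes 9 could be tested and all 9 were positive, with a median of 1.68 and sums of 224 and 635 CPM against 113 and 222 CPM. The neutrophil granule gene Mpo was called higher by edgeR (2.63 ± 0.41, adjusted p = 0.0163), DESeq2 and limma-voom and not in the corrected fit. Of the 9 genes edgeR called 1, DESeq2 2, limma-voom 2 and the corrected fit 0. All 9 leptomeningeal and fibroblast genes were positive and 0 were called by edgeR (2 at an unadjusted p under 0.05) or limma-voom, and 1 by DESeq2, with sums of 1061 and 1844 CPM against 911 and 851 CPM. The 7 Schwann cell and 9 muscle genes were all positive and 0 were called (edgeR, DESeq2 and limma-voom, with 0 at an unadjusted edgeR p under 0.05). The part of these cell types in the differences of the 7 subunit genes was not tested.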

How the data were processed

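Expression was measured by RNA-seq in 4 libraries. Per the labels' protocols, RNA was selected for poly(A), made into strand-specific libraries and sequenced as read pairs of 150 bases. Per the submitters' processing notes, the authors trimmed reads with Trimmomatic 0.30, aligned them with HISAT2 2.0.1 to mm10 and counted them with featureCounts. Which annotation and strand setting were used, and if pairs or single reads were counted, could not be found in the sources used here. The authors deposited a file of raw counts for every library, with Entrez gene numbers as identifiers. In the file of the second cuff-titled library, identifier and count were joined by a literal backslash and letter and were split there.

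Of 27179 identifiers, 25275 were named from the RefSeq table of GRCm38.p6 and 18 more from GENCODE M21. All 7 subunit genes had a sequence entry in the RefSeq promoter table. Tests used R 4.3.3 with edgeR 4.0.16. Genes were filtered with filterByExpr by group, which left 16918, libraries were scaled by TMM, and the groups were compared by a two-sided robust quasi-likelihood F test with Benjamini-Hochberg adjustment. CPM use the TMM-scaled totals of the filtered genes. Standard errors came from the coefficient without shrinkage, as its size over the root of its F statistic. Alternatives were other scalings, DESeq2 1.42.0, limma-voom (limma 3.58.1), a prior that is not robust, other filters, the replicate number as a block, a per-library local regression on transcript length and GC content (span 0.5) over 15465 genes used as offsets, and each library left out. The steps were tested on simulated data.

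The members, the lists and the named-gene rule were chosen with earlier results of these data known. The rule named the 7 genes, the other subunit genes that passed the filter, the called genes of the 2 further receptor and GABA lists or otherwise 2 with the smallest p, annotated neighbours within a gene cluster, and the 5 genes nearest in pattern. Cell type markers are given as counts and sums, with the genes edgeR called. The DNA motifs, Gphn, Slc6a13, Scn10a and the subunit genes removed by the filter were added after their values were seen. Further genes of the subunit and clustering lists are not reported here. All 6 pairs of libraries differed beyond sampling noise, with chi-square values of 25.4 to 72.7 times their degrees of freedom.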

Additional observations from a re-analysis of the deposited data

How the results depend on the processing

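All 7 subunit genes kept a negative log2 fold change in each of 15 alternatives. Gabra3, Gabra4 and Gabra5 were not called in any of them. The genes called over the whole table, 696 in the reported fit, were 1067 with DESeq2, 147 with limma-voom, 237 with a prior that is not robust, 1292 without a filter, 24 with the length and GC correction, and from 0 to 1928 when 1 library was left out. They were 1928 without the first cuff-titled library, 216 without the second, 13 without the second sham-titled library and 0 without the first, where edgeR gave 2260 genes an unadjusted p under 0.05. Of the 7 genes, 1 was called with limma-voom, 0 with the length and GC correction, and from 0 to 4 when 1 library was left out. Leaving out 1 library gave log2 fold changes from -0.79 to -0.48 for Gabra2, -1.49 to -0.89 for Gabrb1, -0.85 to -0.57 for Gabrb2 and -1.01 to -0.35 for Gabrg1, and the fits compare 1 library with 2, so that the lone library is assumed to vary like the others.

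Gabra2 lost its call with limma-voom (-0.61, adjusted p = 0.0712), with a prior that is not robust (-0.61, 0.0625) and with the length and GC correction (-0.22, 0.309). Gabrb1 lost it with limma-voom (-1.16, 0.0584) and the correction (-0.69, 0.135), and Gabrb2 with the correction (-0.52, 0.0533). Gabrg1 gained a call with DESeq2 (-0.63, 0.027) and without a filter (-0.62, 0.0393). The cause of these changes was not tested.

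Nothing in the labels pairs the libraries, and the deviations of same-numbered libraries correlated at 0.114 across genes. With the replicate number as a block 554 genes were called (245 higher, 309 lower), and 3 of the 7 genes. Gabra2 was then at -0.61 (adjusted p = 0.0561), not called, and Gabrg1 at -0.65 (0.0406), called. With both the block and the length and GC correction, 172 genes and 1 of the 7 were called, the latter Gabrb2 (-0.52, 0.0442), with Gabra2 at -0.22 (0.281) and Gabrb1 at -0.68 (0.133).

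The mean share of Gabra3 among the 4 alpha subunit genes, labelled cuff minus labelled sham, was -0.948 percentage points per kilobase of transcript. It was 0.137 points per kilobase of coding sequence and 0.112 points with no length. For Gabra2 it was -1.78, -2.82 and -2.64 points in the same order. That of Gabra4 was -0.3 points and, per coding kilobase, -0.156 points. Depth limits Gabrb1 most, with 173 to 630 counts.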

Other observations

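The mean pattern of the 7 subunit genes over the 4 libraries, as log2 CPM centred on each gene's own mean, was -0.14 and -0.43 in the cuff-titled libraries and 0.26 and 0.31 in the sham-titled ones. Among 10401 other tested genes with a mean of at least 10 CPM, the 5 nearest to it by root mean square difference were Hcfc2, St13, Camsap2, Abca5 and Prepl, at 0.00951 to 0.019. St13, which encodes a cochaperone of the heat shock protein Hsc70, was at 94.1 and 78.0 CPM in the cuff-titled libraries and at 127 and 131 CPM in the sham-titled ones. Camsap2, which encodes a protein that binds microtubule minus ends, was at 127 and 102 CPM against 162 and 170. Likeness over 4 libraries is a weak measure, and 515 of these genes lay within 0.1 of the mean pattern, as did 2 of the 7 subunit genes themselves. The GC content of the longest transcript of the 5 genes ran from 39.8% (Abca5) to 46.7% (Hcfc2), below the median of 49.9%, as for the subunit genes.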
